A study of Mus musculus with 32 samples.

Results

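The G1 cyclins and CDK inhibitors are the genes that set whether a cell leaves G1, and 10 of them were followed here in mouse mammary epithelial cells treated with TGFβ. They were taken as the probe sets annotated to a single gene symbol among Cdkn1a, Cdkn1b, Cdkn1c, Cdkn2a, Cdkn2b, Cdkn2c, Ccnd1, Ccnd2, Ccnd3 and Cdk6. The 10 genes have 24 probe sets, out of 18193 genes and 45037 probe sets on the array. After a filter on low values 22 of these probe sets and 9 of the genes remained. The gene that did not remain is Cdkn1c, whose only probe set exceeded the median of all values (5.52, log2) in 5 of 32 arrays and ran from 4.26 to 6.10.

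D-type cyclins bind the kinases Cdk4 and Cdk6, and the complex phosphorylates the retinoblastoma protein, which releases E2F transcription factors and their targets for DNA synthesis. Proteins of the INK4 family (encoded by Cdkn2a, Cdkn2b and Cdkn2c) bind Cdk4 and Cdk6 and keep the cyclin away, whereas the CIP/KIP proteins p21, p27 and p57 (Cdkn1a, Cdkn1b and Cdkn1c) act on cyclin-bound kinases, those of cyclin E and cyclin A above all. In epithelial cells TGFβ is known to arrest growth in G1, with induction of Cdkn2b and Cdkn1a and loss of Myc and Id proteins as its textbook steps.

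The study asked which transcripts the RNA-binding protein hnRNP E1 holds back from translation until TGFβ releases them. NMuMG is a normal murine mammary gland epithelial line, and E1KD (earlier named SH14) is its derivative in which hnRNP E1 was silenced by shRNA. The groups were E1KD cells given TGFβ2 at 5 ng/ml for 24 h, E1KD cells left untreated, NMuMG cells given the same TGFβ2 for 24 h and NMuMG cells left untreated. From each group polysomal, monosomal and total RNA were hybridized as 2 samples per condition (24 arrays), and RNA precipitated from NMuMG cytosol with an antibody to hnRNP E1 or with IgG gave 8 more. E1KD is 1 derived line, and whether it is a single clone is not given in the sources used here. The loss of hnRNP E1 and any other difference between this derivative and its parent therefore cannot be told apart. In whole cultures, fewer expressing cells and less RNA per cell cannot be told apart either.

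Pcbp1, which encodes hnRNP E1, was at 9.33 and 9.55 in total RNA of TGFβ-treated E1KD cells and at 10.79 and 10.86 in untreated E1KD cells, against 13.14 in both arrays of TGFβ-treated NMuMG cells and 13.08 and 13.12 in untreated NMuMG cells. Replicates of a condition correlated at r between 0.974 and 0.998 over probe sets. Of 8 markers of mammary epithelium 7 exceeded that median of 5.52 in all 8 total RNA arrays, Epcam and Cldn3 by little in every group and Cldn4 by little in treated E1KD and untreated NMuMG cells, and Esrp1 did so in none. Of 8 mesenchymal markers Vim, Cdh2 and Fn1 exceeded it in all 8 arrays and Col1a1, Col1a2, Col3a1, Pdgfrb and Thy1 in none. Among 4 leukocyte markers Cd68 alone exceeded it throughout, and Pecam1 and Cdh5 of the endothelial list did so in no array. The summed mean levels of the epithelial markers were 69.18 and 69.05 in treated and untreated E1KD cells, against 74.98 and 72.54 in treated and untreated NMuMG cells, and those of the mesenchymal markers 62.54 and 61.89, against 60.29 and 58.06. Single genes carried much of these sums. Cldn4 was at 5.71 and 6.47 in treated and untreated E1KD cells, against 8.36 and 5.83 in treated and untreated NMuMG cells, Ocln at 6.72 and 6.37, against 9.39 and 9.47, and Fn1 at 12.93 and 13.03, against 11.49 and 9.64. The part of these markers in the results on the members was not tested.

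All values below are log2 signals as deposited, a difference is a difference of means of such signals, and each gene stands by its probe set of highest mean. Differences were tested with limma over 25432 probe sets, and an adjusted p under 0.05 counted as passing.

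The members moved apart after TGFβ rather than together. In total RNA of E1KD cells 4 of the 9 tested members rose and 1 fell, where 11.4% of all probe sets rose and 9.75% fell. In NMuMG cells 2 rose and 3 fell, where 3.0% of all rose and 2.43% fell. The median difference of the members was 0.25 in E1KD cells (all probe sets, -0.02) and -0.03 in NMuMG cells (all probe sets, 0.01). For 3 members, Cdkn2c, Ccnd3 and Cdk6, the difference between the lines in the response to TGFβ itself passed, each in the direction of E1KD (5.76% of all probe sets passed that way and 5.69% the other). These 3 passed in each of 8 fits with an array of total RNA left out and under 8 other settings. Most of the single-line calls were less firm. When any 1 array of the comparison was left out, between 1 and 2 members passed in NMuMG cells and 2 in E1KD cells, and those that passed in every such fit were Cdkn2c and Ccnd3 in E1KD cells and Cdk6 in NMuMG cells.

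**Figure D1:**
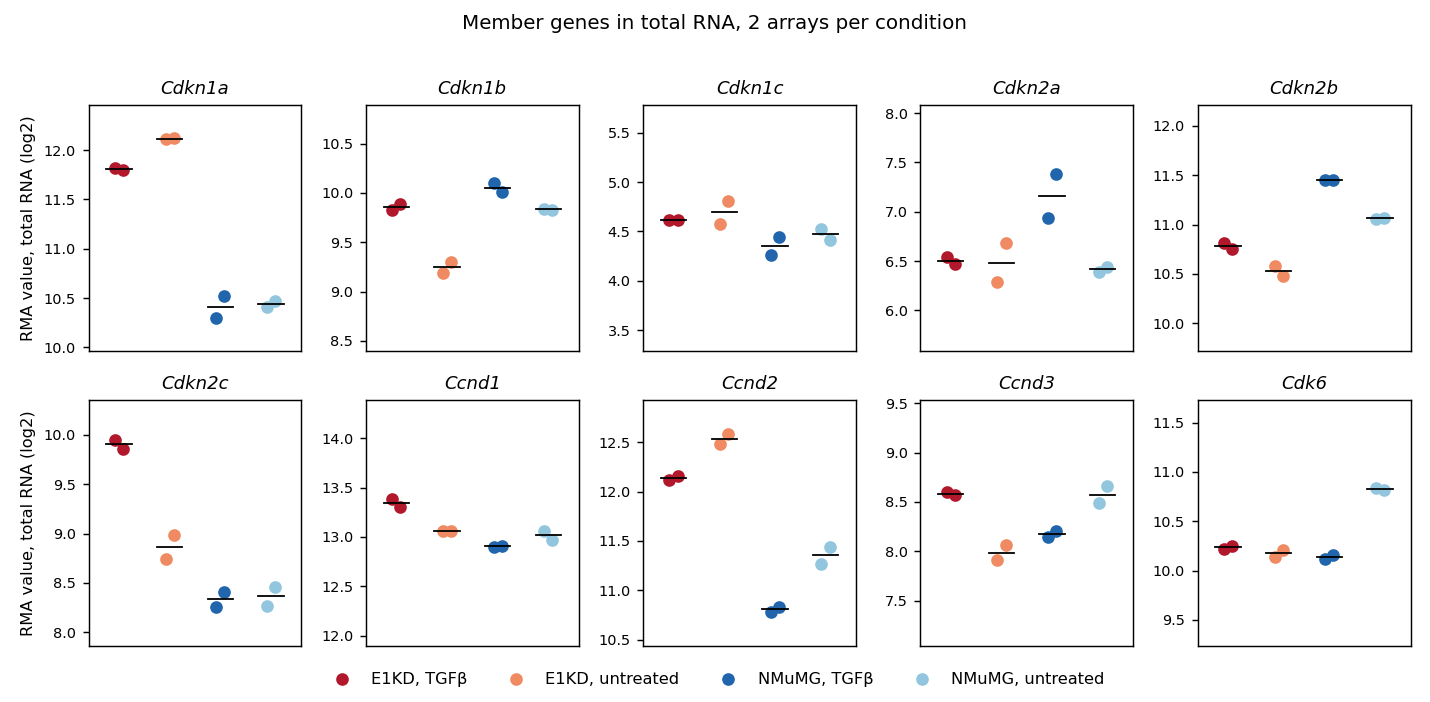
Log2 RMA values of the 10 genes in total RNA, 1 panel per gene with its own axis, 1 point per array and a bar at the mean of each condition (n = 2). Cdkn1a and Ccnd2 are higher in all 4 E1KD arrays than in all 4 NMuMG arrays, and Cdkn2c is highest in TGFβ-treated E1KD cells, at 9.86 and 9.95.

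Among the CIP/KIP inhibitors, Cdkn1a (p21, a target of p53 that halts the cell cycle in G1) stood at 11.80 and 11.82 in TGFβ-treated E1KD cells, against 12.11 and 12.12 in untreated E1KD cells. In NMuMG cells it was at 10.30 and 10.52 with TGFβ and 10.41 and 10.47 without, so that the treated arrays lay on both sides of the untreated ones. The E1KD arrays did not overlap, but the difference of -0.31 (standard error 0.11) missed the threshold (adjusted p = 0.0513 from limma). It passed under 7 of 8 other settings, all but the one without a filter, and in none of 4 fits with an array left out. The second Cdkn1a probe set gave -0.36 there (adjusted p = 0.0351 from limma). In NMuMG cells the difference was -0.03 with a 95% interval of -0.25 to 0.19.

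Cdkn1b (p27, which restrains cyclin E and cyclin A kinases) was at 9.83 and 9.89 in TGFβ-treated E1KD cells, against 9.19 and 9.30 in untreated E1KD cells. In NMuMG cells its values were 10.01 and 10.10 with TGFβ and 9.83 and 9.84 without. Treated arrays lay above untreated ones in both lines. The difference passed in E1KD cells at 0.62 (standard error 0.21, adjusted p = 0.0472 from limma) but in none of 4 fits with an array left out, and it was 0.22 in NMuMG cells (adjusted p = 0.790). Cdkn1c, the gene of p57, was at 4.62 in both treated and at 4.58 and 4.81 in untreated E1KD arrays, and between 4.26 and 4.53 in the NMuMG arrays. These low values overlapped and were not tested.

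The INK4 genes passed in different lines, and Cdkn2c was the one whose response was shown to differ between them. Cdkn2b (p15, known as a direct target of TGFβ signalling) stood at 10.75 and 10.81 in TGFβ-treated E1KD cells, against 10.48 and 10.58 in untreated E1KD cells. In NMuMG cells it was at 11.45 in both treated arrays and at 11.06 and 11.07 in the untreated ones. Treated arrays were above untreated arrays in both lines without overlap. The rise passed in NMuMG cells at 0.39 (1.31-fold, standard error 0.09, adjusted p = 0.0168 from limma), and the E1KD difference of 0.25 did not (adjusted p = 0.0619). The NMuMG call held under 6 of 8 other settings, not without a filter or with all 32 arrays in 1 fit. The E1KD difference passed under 2 of 8. With an array left out the NMuMG difference lay between 0.38 and 0.39, but it was not among the calls above that passed in every such fit. The 2 responses were not shown to differ (-0.14, adjusted p = 0.649 from limma).

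Cdkn2a, whose locus encodes p16 and, in another reading frame, the p53 activator p19ARF, was at 6.47 and 6.54 in TGFβ-treated E1KD cells, against 6.29 and 6.68 in untreated ones. In NMuMG cells it was at 6.94 and 7.38 with TGFβ, against 6.39 and 6.44 without. Only the NMuMG arrays separated by treatment. Cdkn2a rose there by 0.75 (1.68-fold, standard error 0.18, adjusted p = 0.0202 from limma), a call that passed in 1 of 4 fits with an array left out, and the difference between the lines was -0.73 (adjusted p = 0.0827, and 0.0188 with a replicate block). Its single probe set is annotated to the gene as a whole, so p16 and p19ARF transcripts cannot be told apart.

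Cdkn2c (p18) gave the largest change among the members in E1KD cells. It was at 9.86 and 9.95 in TGFβ-treated E1KD cells, against 8.74 and 8.99 in untreated E1KD cells. In NMuMG cells it was at 8.26 and 8.41 with TGFβ and at 8.27 and 8.46 without, with the treated and untreated arrays interleaved. The rise in E1KD cells was 1.04 (2.06-fold, standard error 0.17, adjusted p = 0.000316 from limma), against -0.03 in NMuMG cells (adjusted p = 0.986). The responses differed by 1.07 (standard error 0.24, 95% interval 0.57 to 1.57, adjusted p = 0.00703 from limma).

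Of the D cyclins, Ccnd1 was at 13.30 and 13.38 in TGFβ-treated E1KD cells, against 13.06 in both untreated E1KD arrays, and at 12.90 and 12.91 in TGFβ-treated NMuMG cells, against 12.97 and 13.06 in untreated ones. The treated arrays were the higher ones in E1KD cells and the lower ones in NMuMG cells. Its rise of 0.28 in E1KD cells passed narrowly (adjusted p = 0.0496 from limma), with both further probe sets rising too (0.39 and 0.48). The main probe set passed under 5 of 8 other settings, a replicate block not among them, and in none of 4 fits with an array left out. The NMuMG difference of -0.11 did not pass on any of the 3 probe sets. The difference between the responses was 0.39 on the main probe set (adjusted p = 0.0807 from limma) and passed on the other two (0.45 and 0.67).

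Ccnd2, a D cyclin with 7 probe sets, was at 12.12 and 12.16 in TGFβ-treated E1KD cells, against 12.48 and 12.58 in untreated E1KD cells. In NMuMG cells it was at 10.78 and 10.83 with TGFβ and at 11.27 and 11.44 without. It was lower with TGFβ in both lines, with no overlap. It fell by 0.39 in E1KD cells (adjusted p = 0.0231 from limma) and by 0.55 in NMuMG cells (adjusted p = 0.00774). The E1KD fall passed under 6 of 8 other settings, not without a filter or with all 32 arrays in 1 fit. The NMuMG fall passed under 7 of 8, not with all 32 arrays in 1 fit. With an array left out they lay between -0.44 and -0.34 and between -0.635 and -0.465. Neither was among the calls above that passed in every such fit. Ccnd2 passed in 3 of 7 probe sets in E1KD cells, where 1 of those that missed lay at 0.50 in the opposite direction, and in 4 of 7 in NMuMG cells. None of the 7 gave a difference between the lines that passed.

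Ccnd3 took opposite directions in the lines on its main probe set. It was at 8.57 and 8.60 in TGFβ-treated E1KD cells, against 7.91 and 8.06 in untreated E1KD cells. It was at 8.14 and 8.21 in TGFβ-treated NMuMG cells, against 8.49 and 8.66 in untreated NMuMG cells. Neither pair of groups overlapped. The rise of 0.60 in E1KD cells (1.52-fold, standard error 0.10, adjusted p = 0.000449 from limma) and the fall of 0.40 in NMuMG cells (adjusted p = 0.0263) differed by 1.00 (standard error 0.14, 95% interval 0.70 to 1.30, adjusted p = 0.000201). The 2 dimmer Ccnd3 probe sets did not show this. Their E1KD differences were -0.07 and -0.25, and their differences between the lines 0.29 and -0.05, none of which passed. The NMuMG fall on the main probe set passed under 5 of 8 other settings. It did not pass without a filter, with all 32 arrays in 1 fit or with centring on Actb and Gapdh. With an array left out the NMuMG fall lay between -0.485 and -0.315, and it was not among the calls above that passed in every such fit.

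Cdk6, the kinase partner of the D cyclins, moved in NMuMG cells. It was at 10.22 and 10.25 in TGFβ-treated E1KD cells and at 10.14 and 10.21 in untreated E1KD cells, against 10.12 and 10.16 in TGFβ-treated and 10.82 and 10.84 in untreated NMuMG cells. The untreated NMuMG arrays were the high ones, and the others ran from 10.12 to 10.25. The difference was 0.06 in E1KD cells (adjusted p = 0.787 from limma) and -0.69 in NMuMG cells (standard error 0.11, adjusted p = 0.000917). The responses differed by 0.75 (standard error 0.16, 95% interval 0.41 to 1.09, adjusted p = 0.00494 from limma). All 3 probe sets fell in NMuMG cells, and 2 of 3 passed for the difference between the lines.

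**Figure D2:**
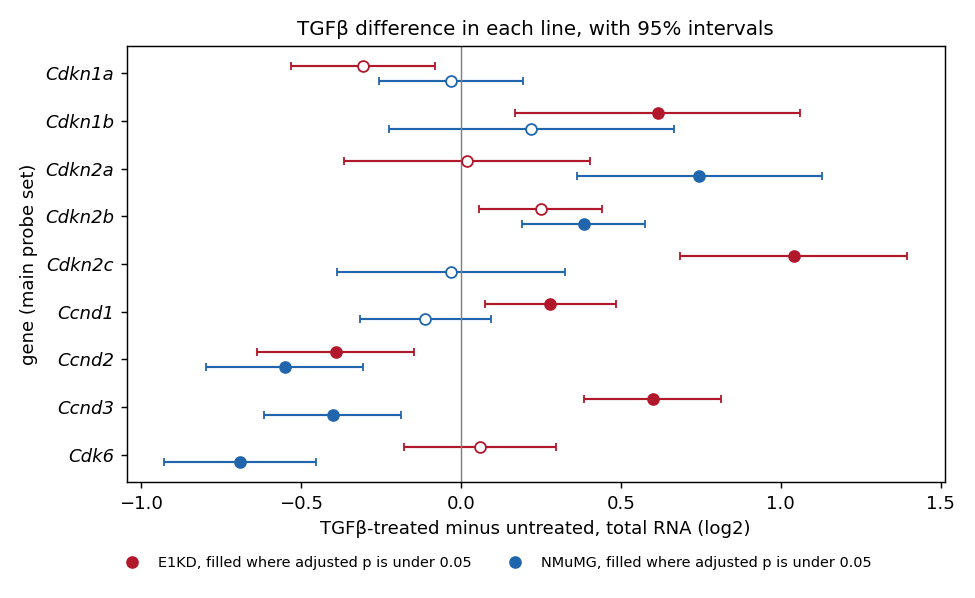
TGFβ-treated minus untreated total RNA (log2) of the 9 tested genes in E1KD and NMuMG cells, with 95% intervals from the limma fit (n = 2 per condition, points filled where the adjusted p is under 0.05). The intervals of the 2 lines stand apart for Cdkn2c, Ccnd3 and Cdk6, at 1.04 and -0.03, 0.60 and -0.40, and 0.06 and -0.69 for E1KD and NMuMG cells.

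The scaling of the arrays bears on the size of the E1KD response. When each array was centred on its Actb and Gapdh control probe sets, the median of all probe sets moved to -0.13 for TGFβ in E1KD cells and to -0.20 for the difference between the lines. With that centring 2 members rose and 2 fell in E1KD cells, and over all probe sets 2064 rose and 3739 fell, against 2906 and 2479 as deposited. For the difference between the lines 3 members were higher and 1 lower, and over all probe sets 935 and 2585, against 1464 and 1446 as deposited. In NMuMG cells 989 rose and 480 fell, against 764 and 618. For the difference between the lines Cdkn2c, Ccnd3 and Cdk6 kept direction and threshold under this centring, whereas the Ccnd3 fall in NMuMG cells did not pass.

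Because these 3 genes carry the difference between the lines, the sequence just before a RefSeq transcription start (GRCm38.p6) is shown for each, in the direction of the gene. Capitals mark a GC box, GGGCGG or its complement CCGCCC, the core of the site that Sp1-family factors bind and that is often described in promoters of CDK inhibitors. The 160 bases of Cdkn2c are chr4:109666757-109666916 on the minus strand, those of Ccnd3 chr17:47504891-47505050 on the plus strand and those of Cdk6 chr5:3343733-3343892 on the plus strand.
Cdkn2c: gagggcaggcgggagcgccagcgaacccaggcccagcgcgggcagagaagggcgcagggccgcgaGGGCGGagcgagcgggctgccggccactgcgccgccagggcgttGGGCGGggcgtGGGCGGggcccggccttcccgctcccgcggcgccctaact
Ccnd3: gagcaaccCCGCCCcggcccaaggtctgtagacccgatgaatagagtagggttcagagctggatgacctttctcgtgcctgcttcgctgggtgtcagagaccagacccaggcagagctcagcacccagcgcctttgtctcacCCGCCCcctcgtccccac
Cdk6: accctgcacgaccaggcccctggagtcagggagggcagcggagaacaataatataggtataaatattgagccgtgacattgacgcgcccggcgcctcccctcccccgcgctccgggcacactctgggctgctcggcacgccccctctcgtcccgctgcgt
The Cdkn2c stretch holds 3 GC boxes in 81.2% G and C, the Ccnd3 stretch 2 in 63.1% and the Cdk6 stretch none in 65.6%. A second RefSeq start of Cdkn2c has no GC box in its 250 upstream bases and a second start of Ccnd3 has 1. For these 2 genes the start with the most GC boxes was the one chosen to be shown, so their counts of 3 and 2 are the higher ones by choice. RefSeq windows were at hand for 7 of the 10 members, with 11 starts, of which 6 had a GC box on either strand within 250 bases upstream, where 32.7% of all 32851 windows had one. A match to any of TTTCCCGC, TTTCGCGC, TTTGCCGC and TTTGGCGC, forms of the E2F site, occurred on either strand in 1 of the 11 (Cdkn2a) and in 1.86% of all windows. The Smad palindrome GTCTAGAC occurred in none of the 11 and in 0.167% of all.

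The lines differed in these genes before any TGFβ was added. In untreated E1KD cells against untreated NMuMG cells 3 of 9 members were higher and 4 lower (15.8% and 13.5% of all probe sets), and in TGFβ-treated cells 5 were higher and 2 lower (14.7% and 12.5%). Both comparisons use the same arrays as the TGFβ responses. With centring on Actb and Gapdh the treated comparison gave 2911 probe sets higher and 4284 lower, against 3732 and 3185 as deposited, and the same count of members. The median member difference was 0.05 untreated and 0.41 treated.

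Cdkn1a showed the largest difference between the untreated lines. Its arrays given above run from 11.80 to 12.12 in E1KD cells, against 10.30 to 10.52 in NMuMG cells. The difference was 1.68 without TGFβ (3.19-fold, standard error 0.11, adjusted p = 4.50e-09 from limma) and 1.40 with it (adjusted p = 5.30e-08), and the second probe set gave 1.75 and 1.37. Ccnd2 was next, at 12.12 to 12.58 in E1KD cells against 10.78 to 11.44 in NMuMG cells. It was higher by 1.18 without TGFβ (2.26-fold, adjusted p = 8.19e-07 from limma) and by 1.34 with it (adjusted p = 2.44e-07), and passed in 6 and in 7 of its 7 probe sets. An inhibitor and a cyclin thus headed the same comparison.

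Other members lay lower in E1KD cells. Cdkn2b differed by -0.54 without TGFβ (adjusted p = 0.000243 from limma) and by -0.67 with it (adjusted p = 3.23e-05). Ccnd3 differed by -0.59 and Cdk6 by -0.66 without TGFβ, whereas with TGFβ Ccnd3 was higher in E1KD cells by 0.41 and Cdk6 lay at 0.10, which did not pass. The Ccnd3 difference with TGFβ was not shared by its other probe sets (-0.24 and -0.46, neither passing). Cdkn2c was higher in E1KD cells by 0.50 without TGFβ (adjusted p = 0.0332 from limma, passing in 1 of 4 fits with an array left out) and by 1.57 with it (2.97-fold, adjusted p = 2.63e-06). Cdkn1b was lower by 0.59 without TGFβ (adjusted p = 0.0443, in none of 4 such fits), and Cdkn2a was lower by 0.66 with it (adjusted p = 0.0119, in 2 of 4). Ccnd1 was higher by 0.44 in TGFβ-treated E1KD cells on its main probe set and by up to 0.63 on the others.

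Other genes of the G1 pathway were counted by list, each gene at its probe set of highest mean. In total RNA the shares of all probe sets are, for each list, those given above for the members. After TGFβ they were 11.4% higher and 9.75% lower in E1KD cells, and 3.0% higher and 2.43% lower in NMuMG cells. Of 20 further cyclins, kinases, pocket proteins and E2Fs, 8 rose and none fell in E1KD cells after TGFβ (median 0.24) and 1 rose in NMuMG cells (median -0.03). Ccna2, the cyclin of S phase, was at 11.13 and 11.15 in TGFβ-treated E1KD cells, against 9.0 and 9.09 in untreated E1KD cells, and between 10.01 and 10.13 in all 4 NMuMG arrays. It rose by 2.10 in E1KD cells (adjusted p = 2.33e-08 from limma). Ccne2, a cyclin that acts with Cdk2 at S phase entry, rose by 1.68, Cdkn2d, the fourth INK4 gene (p19INK4d), by 1.47 and the pocket protein gene Rbl1 (p107) by 0.85. Between 4 and 5 of the 20 rose when 1 array was left out.

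The E2F targets of S phase entry had the largest median difference between the lines among the lists counted. In E1KD cells 13 of 18 tested rose and none fell (median 0.76), and in NMuMG cells none rose and 2 fell (median -0.26). For 12 of 18 the difference between the responses passed, all toward E1KD (median 0.89). With 1 array left out between 9 and 10 rose in E1KD cells and between 9 and 11 passed for the difference. Mki67, the proliferation antigen, was at 12.04 and 12.08 in TGFβ-treated E1KD cells, against 9.98 and 10.01 in untreated ones, and between 10.71 and 10.78 in NMuMG cells with and without TGFβ. Rrm2, a ribonucleotide reductase subunit, was at 12.18 and 12.33 in TGFβ-treated E1KD cells, against 10.20 and 10.32 untreated. It lay at 10.03 and 10.15 in TGFβ-treated NMuMG cells, against 10.31 and 10.34 untreated. The rises in E1KD cells were 2.07 for Mki67 (adjusted p = 3.58e-09 from limma), 2.00 for Rrm2 and 1.25 for Rrm1, the other subunit. Tk1, thymidine kinase, rose by 1.26 in E1KD cells and fell by 0.89 in NMuMG cells. Untreated E1KD cells had 8 of 18 targets lower and 2 higher than untreated NMuMG cells (between 4 and 5 lower and at most 1 higher with 1 array left out), and with TGFβ 11 of 18 were higher and none lower (between 8 and 9 higher). Cdkn2c and Cdkn2d, both inhibitors of Cdk4 and Cdk6, thus rose in the cells in which these targets rose.

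**Figure D3:**
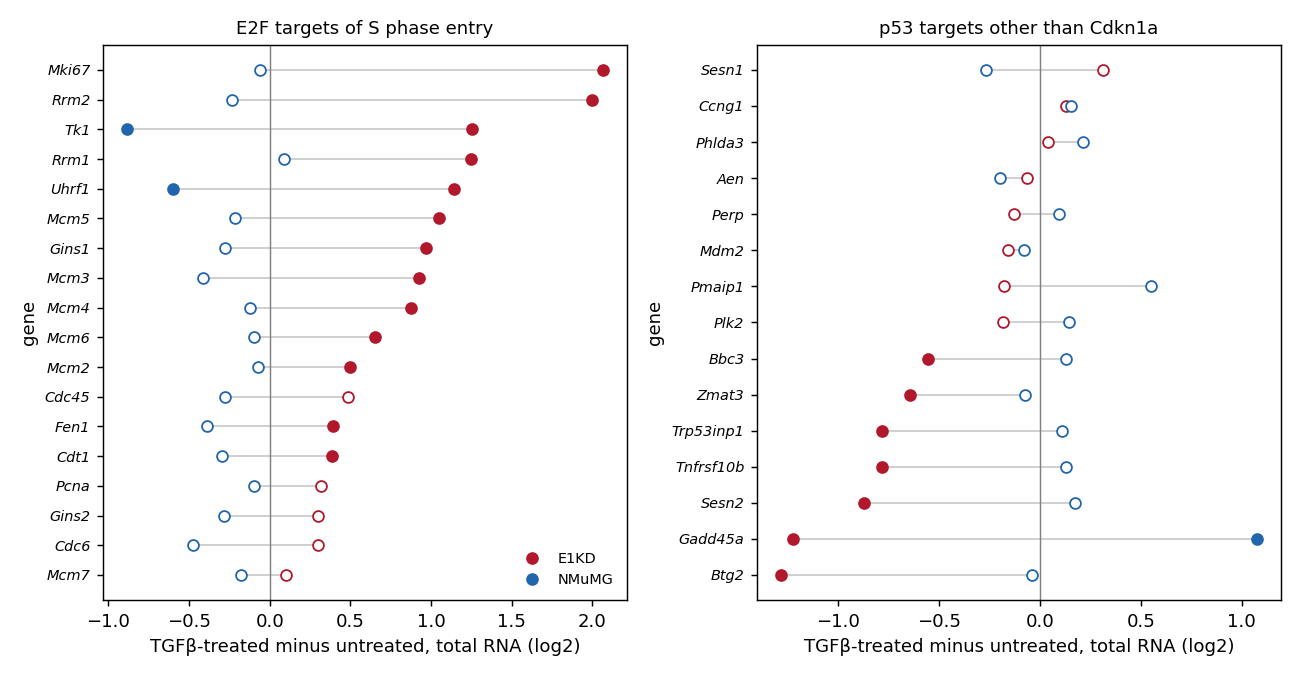
TGFβ-treated minus untreated total RNA (log2) for single genes of 2 lists, E2F targets and p53 targets, in E1KD and NMuMG cells (1 point per gene and line). In E1KD cells 13 of 18 E2F targets passed the threshold to the right of 0 and 7 of 15 p53 targets passed it to the left.

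The p53 targets went the other way. Leaving Cdkn1a aside, none of 15 rose and 7 fell in E1KD cells (median -0.19, between 5 and 6 with 1 array left out), and 1 rose in NMuMG cells. In untreated E1KD cells 10 of 15 were higher than in untreated NMuMG cells and none lower (median 0.59), which is the comparison in which Cdkn1a was 3.19-fold higher. Gadd45a, a stress gene that slows the cycle, was at 11 and 11.06 in TGFβ-treated E1KD cells, against 12.25 and 12.26 in untreated E1KD cells. In NMuMG cells it was at 12.26 and 12.29 with TGFβ and at 11.19 and 11.21 without, the reverse order. It fell by 1.23 in E1KD cells (adjusted p = 1.69e-06 from limma) and rose by 1.08 in NMuMG cells (adjusted p = 2.14e-05). The antiproliferative gene Btg2 fell by 1.29 in E1KD cells, Sesn2, a stress gene that restrains mTORC1, by 0.88 and Trp53inp1, a partner of p53 in stress responses, by 0.79.

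Upstream regulators of the arrest were mixed, with 5 of 17 higher and 4 lower in E1KD cells and 4 higher and 2 lower in NMuMG cells. With 1 array left out between 3 and 4 were higher and as many lower in E1KD cells, and between 2 and 4 higher and 2 lower in NMuMG cells, and the shares of all probe sets are those given above for the members. Id2, an inhibitor of differentiation that TGFβ represses in epithelial cells, was at 11.76 and 11.85 in TGFβ-treated E1KD cells, against 9.13 and 9.20 untreated. It was at 9.71 and 9.89 in TGFβ-treated NMuMG cells, against 11.14 and 11.25 untreated. It rose by 2.64 in E1KD cells (adjusted p = 3.44e-08 from limma) and fell by 1.40 in NMuMG cells (adjusted p = 9.35e-05). Atf3, a stress factor known to repress Id1 with Smad3, was at 8.73 and 8.80 in TGFβ-treated E1KD cells, against 11.80 and 11.86 untreated. It fell by 3.07 there (adjusted p = 6.50e-11 from limma). In NMuMG cells Atf3 was at 11.02 in both treated arrays, against 10.22 and 10.28 untreated, a rise of 0.77. Id1 rose by 1.68 in E1KD cells. Gadd45b, a TGFβ target, fell by 0.78 in E1KD cells and rose by 1.05 in NMuMG cells. Not every target turned: the TGFβ-induced repressor Klf10 rose by 0.71 in E1KD cells and 0.87 in NMuMG cells, and the inhibitory Smad7 by 0.54 and 0.70. Of 15 factors that degrade or assemble the G1 regulators 1 rose and 1 fell in E1KD cells (Ubac1 by 0.32, and Rnf123, part of the KPC ligase that targets p27, by 0.66) and none passed in NMuMG cells (limma, 2 lower at an unadjusted p under 0.05).

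Where the transcripts lay on the sucrose gradient was compared next, since polysomal RNA is taken as translating and monosomal RNA as not. The untreated NMuMG monosomal arrays stood apart from the others. Across probe sets they correlated with total RNA of the same cells at r of 0.928 to 0.932, against 0.716 to 0.887 for the other monosomal arrays. Their 18S rRNA control signal was 13.38 to 13.45, against 10.27 to 11.61 in the other monosomal arrays, and their Gapdh 3′ minus 5′ signal 0.45 to 0.51, against -0.04 to 0.13 in the other 22 arrays of total and gradient RNA. The part of these differences in the results on NMuMG gradients was not tested. The shifts were therefore also taken against total RNA in place of monosomal RNA, a comparison chosen after seeing the data.

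In TGFβ-treated E1KD cells none of the 9 members was higher in polysomal than in monosomal RNA and 4 were lower (34.0% and 26.6% of all probe sets), and in untreated E1KD cells none was higher and 6 were lower (16.8% and 18.2%). In TGFβ-treated NMuMG cells 1 was higher and 4 lower (27.6% and 22.1%), and in untreated NMuMG cells 1 was higher and 8 lower (29.3% and 41.9%). The members' median was -0.20 and -0.61 in treated and untreated E1KD cells and -0.33 and -0.86 in treated and untreated NMuMG cells. For all probe sets in untreated NMuMG cells it was -0.14. Ccnd3 was the member higher in polysomal RNA, in NMuMG cells with and without TGFβ. Centring on Actb and Gapdh turned the balance for TGFβ-treated NMuMG cells, to 3 members higher and 1 lower, as the median of all probe sets moved to 0.28 and the split over all to 10040 higher and 3535 lower, against 7019 and 5630 as deposited. For untreated NMuMG cells it gave 9974 and 8992, against 7453 and 10648.

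How far a transcript moved between the pools is given as the polysome shift, that is polysomal over monosomal RNA (as a log2 difference) in treated cells less the same in untreated cells. It was higher for 3 members and lower for 1 in E1KD cells (20.9% and 7.73% of all probe sets, members' median 0.13) and higher for 6 and lower for 2 in NMuMG cells (40.1% and 30.3%, median 0.68). The shift differed between the lines in 3 members, 1 toward E1KD and 2 toward NMuMG (13.1% and 23.5% of all probe sets). Against total RNA, no member passed in E1KD cells (limma, 1 higher and 2 lower at an unadjusted p under 0.05, with 11.5% of all probe sets passing in either direction) and 1 passed in each direction in NMuMG cells (12.2%). Scaling moved the E1KD background: with centring on Actb and Gapdh the E1KD shift had 6557 probe sets up and 1151 down, against 5324 and 1965 as deposited, and with quantile normalization 4148 and 3541. For the difference between the lines quantile normalization gave 4265 and 4661, against 3320 and 5966.

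The TGFβ difference within the polysomal pool alone was added after seeing the data. Of the 9 members 2 were higher and none lower in E1KD cells, where 4.45% of all probe sets passed in either direction, and 2 were higher and 2 lower in NMuMG cells, where 30.1% did. Of the 18 E2F targets, 13 of which rose in total RNA of E1KD cells, none passed in polysomal RNA of those cells (limma, median -0.17, with 1 higher and 5 lower at an unadjusted p under 0.05), and in NMuMG cells 5 were higher and 4 lower.

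Ccnd2 shifted out of polysomes on its main probe set. Its polysomal RNA was at 11.39 and 11.40 in TGFβ-treated and at 11.78 and 11.84 in untreated E1KD cells, against 8.79 and 8.82 in TGFβ-treated and 9.99 and 10.21 in untreated NMuMG cells. Its monosomal RNA was at 12.47 and 12.51 in TGFβ-treated and at 12.42 and 12.45 in untreated E1KD cells, against 10.89 and 11.24 in TGFβ-treated and 10.46 and 10.55 in untreated NMuMG cells. In NMuMG cells this probe set was thus lower in polysomal and higher in monosomal RNA with TGFβ, without overlap. Over its 7 probe sets the treated NMuMG arrays lay below the untreated ones in 6 for polysomal RNA, and above them in 2 and below them in 4 for monosomal RNA. These probe sets measure 1 gene on the same arrays, and the share of all probe sets without overlap was not counted. For TGFβ in polysomal RNA of NMuMG cells 30.1% of all probe sets passed in either direction. The shift was -0.47 in E1KD cells (adjusted p = 0.0417 from limma, in none of 8 fits with an array left out) and -1.86 in NMuMG cells (adjusted p = 7.80e-08), and the lines differed by 1.39 (adjusted p = 0.000322). Against total RNA the E1KD shift was -0.03 (adjusted p = 0.953), the NMuMG shift -0.75 (adjusted p = 0.00708) and the difference between the lines 0.72 (adjusted p = 0.0494). Its 7 probe sets did not move as one, since in NMuMG cells 4 were lower, 1 was higher and 2 did not pass, over a range of -2.07 to 0.81.

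Cdkn2a moved toward polysomes in NMuMG cells when set against monosomal RNA, but not past the threshold against total RNA. Its polysomal RNA was at 6.62 and 6.81 in TGFβ-treated and 6.29 and 6.74 in untreated E1KD cells, against 6.84 and 7.13 in TGFβ-treated and 5.74 and 6.03 in untreated NMuMG cells. Its monosomal RNA was at 6.67 and 6.69 in TGFβ-treated and 6.52 and 6.70 in untreated E1KD cells, against 7.08 and 7.27 in TGFβ-treated and 7.92 and 8.02 in untreated NMuMG cells. The untreated NMuMG arrays were the lowest of the polysomal and the highest of the monosomal arrays. The shift was 0.13 in E1KD cells (adjusted p = 0.729 from limma) and 1.90 in NMuMG cells (adjusted p = 7.15e-06), a difference of -1.77 (adjusted p = 0.00149). Against total RNA the NMuMG shift was 0.36 (adjusted p = 0.435) and the difference between the lines -0.18 (adjusted p = 0.832). Within the polysomal pool Cdkn2a rose by 1.10 in NMuMG cells (adjusted p = 0.000222 from limma).

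Cdkn2c, the gene that rose with TGFβ in total RNA of E1KD cells, was at 8.46 and 8.64 in polysomal RNA of TGFβ-treated and at 8.0 and 8.51 in that of untreated E1KD cells, against 8.44 and 8.80 in TGFβ-treated and 8.22 and 8.51 in untreated NMuMG cells. Its monosomal RNA was at 8.94 and 9.02 in TGFβ-treated and 9.0 and 9.19 in untreated E1KD cells, against 8.91 and 9.04 in TGFβ-treated and 10.02 and 10.06 in untreated NMuMG cells. Polysomal arrays of the lines overlapped, and only untreated NMuMG monosomal arrays stood high. In the polysomal pool of E1KD cells the TGFβ difference was 0.30, with a 95% interval of -0.06 to 0.65. The shift was 0.41 in E1KD cells (adjusted p = 0.205 from limma) and 1.32 in NMuMG cells (adjusted p = 0.000129), a difference of -0.91 (adjusted p = 0.0439), against -1.03 and an adjusted p of 0.0526 with total RNA. The difference of -0.91 passed under 3 of 8 other settings. The NMuMG shift was 0.29 against total RNA (adjusted p = 0.514), and that of E1KD cells -0.75 (adjusted p = 0.0534).

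Ccnd3 gave different signs in different RNA. Its polysomal RNA was at 9.64 and 9.68 in TGFβ-treated and 9.25 and 9.32 in untreated E1KD cells, against 10.52 and 10.66 in TGFβ-treated and 10.14 and 10.29 in untreated NMuMG cells. Its monosomal RNA was at 9.75 and 9.77 in TGFβ-treated and 9.25 in both untreated E1KD arrays, against 10.22 and 10.32 in TGFβ-treated and 9.22 and 9.33 in untreated NMuMG cells. On this main probe set treated arrays were the higher ones in both pools of both lines, unlike in total RNA of NMuMG cells. In the polysomal pool it rose by 0.38 in E1KD cells (adjusted p = 0.0452 from limma) and by 0.38 in NMuMG cells (adjusted p = 0.00973), where total RNA of NMuMG cells fell by 0.40. The other probe sets gave 0.035 and -0.405 in polysomal RNA of E1KD cells and 0.355 and -0.305 in that of NMuMG cells, none passing. The NMuMG shift of the main probe set was -0.62 against monosomal RNA (adjusted p = 0.00113 from limma) and 0.78 against total RNA (adjusted p = 0.00227), a change of sign.

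Cdk6 was at 7.91 and 8.11 in polysomal RNA of TGFβ-treated and 7.88 and 7.93 in that of untreated E1KD cells, against 8.0 and 8.10 in TGFβ-treated and 8.89 and 8.90 in untreated NMuMG cells. Its monosomal RNA was at 8.57 and 8.63 in TGFβ-treated and 8.87 and 9.10 in untreated E1KD cells, against 8.33 and 8.62 in TGFβ-treated and 10.36 and 10.40 in untreated NMuMG cells. As in total RNA, the untreated NMuMG arrays were the high ones in both pools. In the polysomal pool Cdk6 fell by 0.85 in NMuMG cells (adjusted p = 3.27e-05 from limma), and the E1KD difference was 0.11, with an interval of -0.13 to 0.34. Its shift of 1.06 in NMuMG cells against monosomal RNA (adjusted p = 2.07e-05) became -0.16 against total RNA (adjusted p = 0.612). In E1KD cells the shift against monosomal RNA was 0.49 (adjusted p = 0.0302 from limma), and all 3 probe sets passed as higher. The main one passed under 4 of 8 other settings. The lines were not shown to differ in this shift (-0.57, adjusted p = 0.0568 from limma).

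Cdkn2b in polysomal RNA was at 10.20 and 10.30 in TGFβ-treated and 9.66 and 9.71 in untreated E1KD cells, against 10.71 and 10.81 in TGFβ-treated and 10.56 and 10.60 in untreated NMuMG cells. Treated arrays were above untreated ones in both lines. The polysomal rise passed in E1KD cells at 0.57 (adjusted p = 0.00273 from limma) and lay at 0.18 in NMuMG cells with an interval of -0.01 to 0.37. Cdkn1b shifted by 1.08 in E1KD cells (adjusted p = 0.0145 from limma) and 1.61 in NMuMG cells (adjusted p = 0.000165). Its monosomal replicates were at 7.82 and 8.55 in TGFβ-treated NMuMG cells, a wide spread, and at 9.40 and 9.75 in untreated ones. Against total RNA neither shift of Cdkn1b passed. Ccnd1 shifted by 0.05 in E1KD cells and 0.53 in NMuMG cells (adjusted p = 0.00266), and Cdkn1a by 0.03 and 0.05 on its main probe set, where the second Cdkn1a probe set gave -0.47 and -1.52, both passing.

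**Figure D4:**
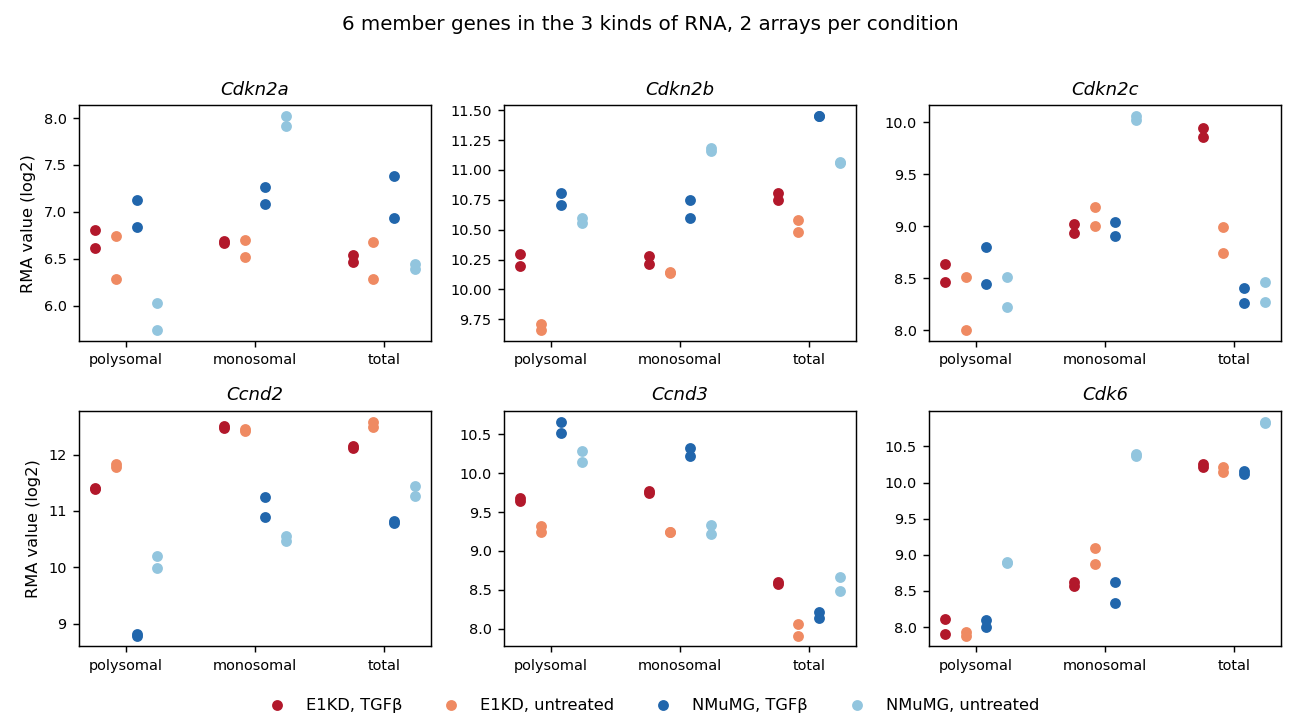
Log2 RMA values of Cdkn2a, Cdkn2b, Cdkn2c, Ccnd2, Ccnd3 and Cdk6 in polysomal, monosomal and total RNA, 1 point per array and 2 arrays per condition, coloured by line and treatment. Untreated NMuMG cells hold the highest monosomal values of Cdkn2a (7.92 and 8.02), Cdkn2c (10.02 and 10.06) and Cdk6 (10.36 and 10.40).

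RNA precipitated with the hnRNP E1 antibody was set against IgG to ask which members it held. The labels of the hnRNP E1 libraries conflict: titles give 13A and 14B as untreated and 14A and 13B as TGFβ-treated, while descriptions name TGFβ for 14A and 14B. Over probe sets 13A correlated with 13B at 0.9947 and 14A with 14B at 0.9962, and the other 4 pairs at 0.9853 to 0.9876. Treatments were therefore pooled to 4 arrays per antibody, and no TGFβ effect on hnRNP E1 binding is given. None of the 9 members was higher in the hnRNP E1 precipitate and 4 were lower, where 15.3% of all probe sets were higher and 13.3% lower (median -0.25 over the members, -0.01 over all). Between 2 and 4 passed with 1 array left out.

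Cdk6 was at 9.67, 10.00, 10.04 and 10.18 in the hnRNP E1 precipitates, against 10.36, 10.39, 10.74 and 10.87 in the IgG precipitates. Cdkn2a was at 5.44, 6.27, 6.27 and 7.38 in the hnRNP E1 precipitates, against 7.48, 7.51, 7.84 and 8.06 in the IgG precipitates. For both genes every hnRNP E1 array lay below every IgG array, by a narrow margin for Cdkn2a. The difference was -0.62 for Cdk6 (standard error 0.14, adjusted p = 0.0112 from limma) and -1.38 for Cdkn2a (standard error 0.34, adjusted p = 0.0135), and both passed in 8 of 8 fits with an array left out. Of the Cdk6 probe sets 2 of 3 passed.

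Cdkn1b ran from 10.02 to 10.19 in the hnRNP E1 precipitates, against 10.31 to 10.56 in the IgG precipitates, a difference of -0.33 (adjusted p = 0.0174 from limma, in 6 of 8 such fits). Ccnd1 ran from 12.70 to 12.89, against 13 to 13.12 with IgG, a difference of -0.25 (adjusted p = 0.0299, in 2 of 8), and a second Ccnd1 probe set lay at 0.26, in the opposite direction without passing. Neither gene's arrays overlapped between the antibodies. Ccnd3 probe sets disagreed, with 0.23 on the main one (adjusted p = 0.148 from limma), 0.40 passing as higher and -0.42 passing as lower on the others. Ccnd2 (-0.26), Cdkn2c (-0.12), Cdkn1a (0.04) and Cdkn2b (-0.01) did not pass. In a fit that grouped the hnRNP E1 arrays by array number instead, 6 members passed, the same 4 together with Ccnd2 as lower (adjusted p = 0.0184 from limma) and Ccnd3 as higher (adjusted p = 0.0207). More of all probe sets passed in that fit too, 5504 as higher and 5221 as lower, against 3882 and 3395 with treatments pooled. Ccnd2 and Cdkn2b split by array number, with 10.09 and 10.21 in 13A and 13B and 11.16 and 10.97 in 14A and 14B for Ccnd2, and 11.65 and 11.64 in 13A and 13B and 11.19 and 11.16 in 14A and 14B for Cdkn2b. For comparison, 11 of 18 E2F targets were higher in the hnRNP E1 precipitates and none lower (median 0.43).

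**Figure D5:**
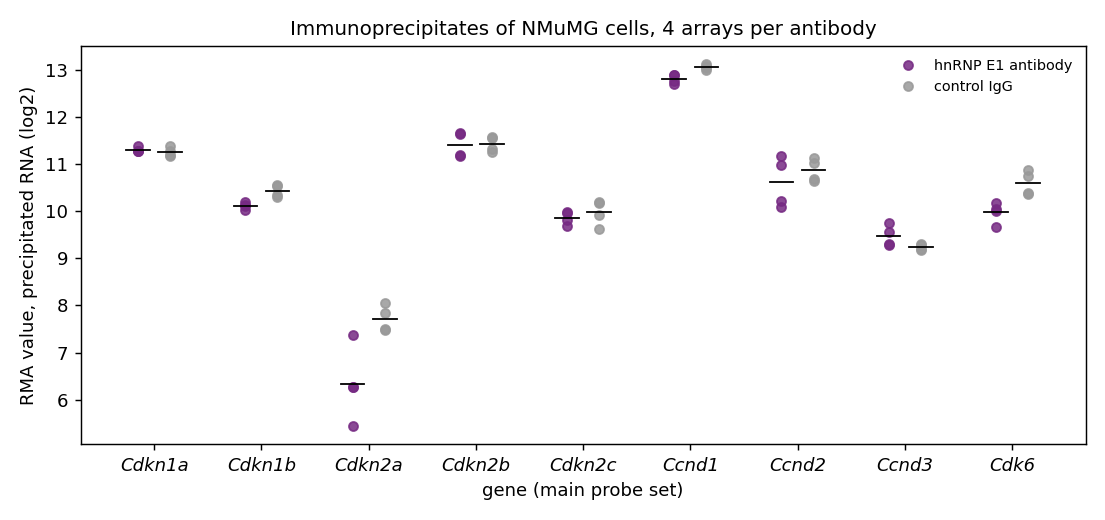
Log2 RMA values of the 9 tested genes in hnRNP E1 and IgG precipitates of NMuMG cells, 1 point per array and a bar at the mean (4 arrays per antibody, treatments pooled). Cdk6, Cdkn2a, Cdkn1b and Ccnd1 lie lower with hnRNP E1 without overlap, with differences of -0.62, -1.38, -0.33 and -0.25.

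The genes whose pattern over the 12 condition means of total, monosomal and polysomal RNA was most like that of a member were named by Pearson's r, which takes in the differences between the kinds of RNA. For Cdkn2c these were Vsig10 (0.931) and Cdca4 (0.909), for Ccnd3 Ctdnep1 (0.978) and Csnk1g2 (0.975), for Cdk6 Gabpb2 (0.966) and Arhgef12 (0.959), and for Cdkn1a Epha2 (0.95) and Sdc2 (0.944).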

How the data were processed

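Signals of Affymetrix mouse genome arrays were deposited on the log2 scale after the authors had run RMA (Expression Console software). RMA corrects background, quantile-normalizes the arrays and summarizes probes, so a level is relative to the array as a whole and small values are compressed. Versions of that software are not given in the sources used here. The 32 arrays come from 16 conditions with 2 samples each. The labels call the 2 samples of a condition biological replicates and the methods call them independent, and neither names separate cultures. The p-values cover the spread between these samples, and the number of arrays limits the precision.

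The table holds 45101 probe sets, of which 64 are controls. Of the others 34945 carry 1 symbol, 932 carry several and 9160 carry none. Probe sets with values above 5.52, which is the table's median, in 8 or more arrays were retained (25432). The authors filtered on detection calls, which were not used here. Tests were 2-sided and used moderated linear models of limma (version 3.58.1, under R version 4.3.3), with 12 residual degrees of freedom over the 24 total and gradient arrays and 6 over the 8 immunoprecipitation arrays. The Benjamini-Hochberg adjustment ran over all retained probe sets, with a threshold of 0.05. The code was tested on simulated data. Figures were drawn with Python 3.11.15 and matplotlib 3.10.9.

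The members were named as given, each by its probe set of highest mean over the 24 arrays. Of each gene list up to 4 genes with the largest change past the threshold in total RNA were named, together with Pcbp1, marker genes and the 2 genes most like a member. Klf10, Smad7 and the array 14A value of Cdkn1a were singled out after their values were seen. The members and lists were chosen with earlier results of these data known. As alternatives, the filter and the set of arrays fitted were changed, and there were runs with a replicate block, an intensity trend, quantile normalization, centring on the Actb and Gapdh 3′ control probe sets (no probe set is annotated to Gapdh alone), other probe sets, each array left out, and, chosen after seeing the data, total RNA in place of monosomal RNA. Promoter sequences and starts are from RefSeq (GRCm38.p6).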

Additional observations from a re-analysis of the deposited data

Results flagged for a closer look

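In the hnRNP E1 precipitates Cdkn1a was at 11.38 in array 14A and at 11.27, 11.28 and 11.28 in the other three, so that the gap of 14A to its nearest neighbour made up 0.909 of the range of the group, above the 95% limit of Dixon's test. It was the only one of 18 such groups of 4 to exceed that limit, and chance gives about 1 in 20.

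The response of total RNA to TGFβ differed between E1KD and NMuMG cells by 1.07 for Cdkn2c, 1.00 for Ccnd3 and 0.75 for Cdk6 (log2, E1KD minus NMuMG), each by a test of the difference itself in limma. For Ccnd3 the 2 dimmer probe sets gave 0.29 and -0.05.

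The polysome shift after TGFβ differed between E1KD and NMuMG cells by -1.77 for Cdkn2a, -0.91 for Cdkn2c and 1.39 for Ccnd2, on the same kind of test. All 3 rest in part on the untreated NMuMG monosomal arrays, and against total RNA they were -0.18 for Cdkn2a (adjusted p = 0.832 from limma), -1.03 for Cdkn2c (adjusted p = 0.0526) and 0.72 for Ccnd2 (adjusted p = 0.0494). Against monosomal RNA the differences of Cdkn2a and Ccnd2 passed under 8 of 8 other settings and that of Cdkn2c under 3 of 8.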

How the results depend on the processing

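Leaving out 1 array at a time, 84 of 720 member values lost and 11 gained the threshold, and the sign turned in 28, none of which passed with or without the array (as deposited, at most 0.13 from 0). The lowest and highest numbers of members passing were 2 and 2 for TGFβ in E1KD cells, 1 and 2 in NMuMG cells and 3 and 4 for their difference. They were 6 and 7 for the treated lines, 5 and 6 for the untreated lines and 2 and 4 for the precipitates. For polysomal minus monosomal RNA they were 3 and 4 in treated E1KD, 5 and 5 in untreated E1KD, 4 and 4 in treated NMuMG and 8 and 9 in untreated NMuMG cells, and for the polysome shift 1 and 4 in E1KD cells, 8 and 8 in NMuMG cells and 2 and 5 for the difference.

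Other settings moved some counts, and the cause was not tested. With no filter 2 members passed for TGFβ in E1KD cells, 3 in NMuMG cells and 2 for the E1KD shift. A stricter filter gave 5 for the shift difference. All 32 arrays in 1 fit gave 1 for TGFβ in NMuMG cells and 1 for the E1KD shift. A fit of only the arrays compared gave 5 for the response difference, 1 for polysomal minus monosomal RNA of treated NMuMG cells and 2 for the E1KD shift. Second probe sets gave 3 for polysomal minus monosomal RNA of treated NMuMG cells. Total RNA in place of monosomal RNA gave 8 for treated E1KD cells, 0 for the E1KD shift and 2 for the NMuMG shift. For treated E1KD cells 17798 of all 25432 probe sets passed under that setting, against 15427 with monosomal RNA. Same-numbered samples deviated together in some pairs of groups and apart in others (r of -0.383 to 0.323 over 66 pairs, median 0.0646, 21 over 0.1). The 18S rRNA control signal was higher in sample 1 than in sample 2 of every total and gradient condition. With a replicate block 5 members passed for TGFβ in each line (in E1KD cells Cdkn1a at an adjusted p of 0.0395 from limma in place of Ccnd1 at 0.0545). The block gave 4 for the response difference (with Cdkn2a at 0.0188), 7 in each line comparison and 4 for the precipitates. For the polysome shift it gave 4 in E1KD cells, 8 in NMuMG cells and 4 for their difference (with Cdk6 at 0.0347).

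Over all probe sets, only the arrays compared gave 8665 against 5385 for TGFβ in E1KD cells, 3931 against 1382 in NMuMG cells, 7340 against 2910 for their difference, 10542 against 6917 and 11698 against 7453 for the treated and untreated lines, and 7085 against 12649 for polysomal minus monosomal RNA of treated NMuMG cells. All 32 arrays in 1 fit gave 472 for TGFβ in NMuMG cells. Total RNA in place of monosomal RNA gave 17252 against 8905 in untreated E1KD cells, 2919 against 7289 for the E1KD shift, 3108 against 17894 for the NMuMG shift and 3463 against 9286 for their difference.

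Member values that passed in at least 1 of the fits compared turned sign in the cases below. Among values that passed in neither, 10 turned under centring on Actb and Gapdh, 6 under quantile normalization, 8 on other probe sets and 8 against total RNA. Quantile normalization put polysomal minus monosomal Ccnd2 of untreated NMuMG cells at 0.0089. Total RNA in place of monosomal RNA put Cdkn1a at 0.24 and 0.04 in untreated and treated NMuMG cells, Cdkn1b at -1.46 and -1.44 and Cdkn2b at -0.53 and -0.69 in treated E1KD and treated NMuMG cells, Ccnd3 at 1.08 in treated E1KD cells, the NMuMG shifts of Cdkn2b, Ccnd3 and Cdk6 at -0.21, 0.78 and -0.16, the E1KD shift of Cdkn1b at -0.53 and the Ccnd3 shift difference at -1.0. In total RNA other probe sets put Ccnd2 at 0.50 in E1KD cells after TGFβ, and Ccnd3 at -0.25 and -0.065 in E1KD cells, at -0.05 for the response difference and at -0.46 and -0.24 between treated lines. In the precipitates they put Ccnd1 at 0.26 and Ccnd3 at -0.42. For polysomal minus monosomal RNA they put Cdkn1a of untreated NMuMG cells at 0.51, Ccnd1 of treated E1KD cells at 0.42, Ccnd2 at 0.51, 1.26 and 0.84 in treated and 0.36, 0.70 and 0.38 in untreated E1KD cells, and Cdk6 at 0.65 and 0.54 in treated E1KD and 0.34 in treated NMuMG cells. For the polysome shift they put Cdkn1a at -0.47 in E1KD cells, -1.52 in NMuMG cells and 1.04 for the difference, and Ccnd2 at 0.15, 0.56 and 0.46 in E1KD cells, 0.29, 0.47 and 0.81 in NMuMG cells and -0.14 and -0.36 for the difference.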
